A study of Oryza sativa with 36 samples.

Results

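WRKY transcription factors are plant regulators that carry the WRKY amino acid motif beside a zinc finger and bind the W box, a short DNA element in the promoters of many defence and stress genes. They are best known for switching immune responses on and off downstream of receptors and mitogen-activated protein kinases, and several rice members also restrain hormone responses in the aleurone, the secretory layer of the seed. The members described here are all genes on the Affymetrix Rice Genome Array whose RefSeq symbol or synonym is WRKY followed by a number, which gave 6 genes with 7 probe sets, among 57194 probe sets tested and 17905 genes that have a probe set of their own. The rice family is much larger, and family members that carry only a locus number in the annotation were not analysed here.

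RNA came from young panicles of 2 cm length from 6 varieties grown in cement enclosed plots, either drought-stressed by draining the plot at the later tillering stage or well watered. Of the varieties, MILT1444, EMATAYIN and HUHAN3 are japonica types and DOURADOAGULHA is an indica type, all of them classed as drought tolerant by the study, while KHAUMEO (indica) and NIPPONBARE (japonica) are classed as sensitive. The 12 groups of a variety under a treatment have 3 arrays each, 36 arrays in all, from 3 independent experiments per the methods. Whole panicles were hybridised, so fewer cells of a type and less RNA per cell cannot be told apart. Values are linear intensities, changes are differences of log2 values, drought-stressed minus well watered, given with the standard error (SE) from limma fitted to all arrays, and adjusted p values are Benjamini-Hochberg values over all probe sets.

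The array medians lay between 55.8 and 68.84, and each array correlated with the others at a median r of 0.948 to 0.972. This median r was 0.948 to 0.951 for the indica arrays and 0.960 to 0.972 for the japonica arrays, which were more numerous. Of 16 young panicle markers, mostly floral MADS-box genes, 15 were brighter on average than the median probe set. Green leaf markers were also present, with 3 of 5 above that median and CAB2R, a light-harvesting protein gene, at a mean of 6002. Of the Rubisco small subunit genes, RBCS had a mean of 1742, while RBCS1 lay near the floor with a mean of 6.93.

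The 6 genes are WRKY9 on chromosome 7, WRKY24 on chromosome 1, WRKY51 on chromosome 4, WRKY62 and WRKY76 on chromosome 9, and WRKY71, with 2 probe sets, on chromosome 2. Some carry a second family name in the annotation, WRKY8 for WRKY24 and WRKY38 for WRKY71. WRKY62, also called XB10, binds the immune receptor kinase XA21 and lowers resistance to bacterial blight. WRKY76 is a repressor related to WRKY62, and the genes are direct neighbours, with 0 annotated genes between them. WRKY71 belongs to the same repressor group and restrains gibberellin-induced genes in the aleurone together with WRKY51. WRKY24 represses both gibberellin and abscisic acid responses there.

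WRKY9 was bright, with 1318 to 2197 over the 36 arrays and a median of 1886. WRKY51 had intensities of 98.5 to 422 with a median of 266. WRKY71 covered the widest range, 28.9 to 2614 around a median of 96.3. These 3 genes lay above the median probe set on average. The other members were dim. WRKY76 had 41.2 to 81.1 with a median of 53.4, and WRKY24 had 16.9 to 77.1 with a median of 24.2. WRKY62 had the narrowest range of the dim genes, 17.8 to 31.9 with a median of 24.3. Background signal makes up a larger part of such dim values, which compresses their changes.

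**Figure D1:**
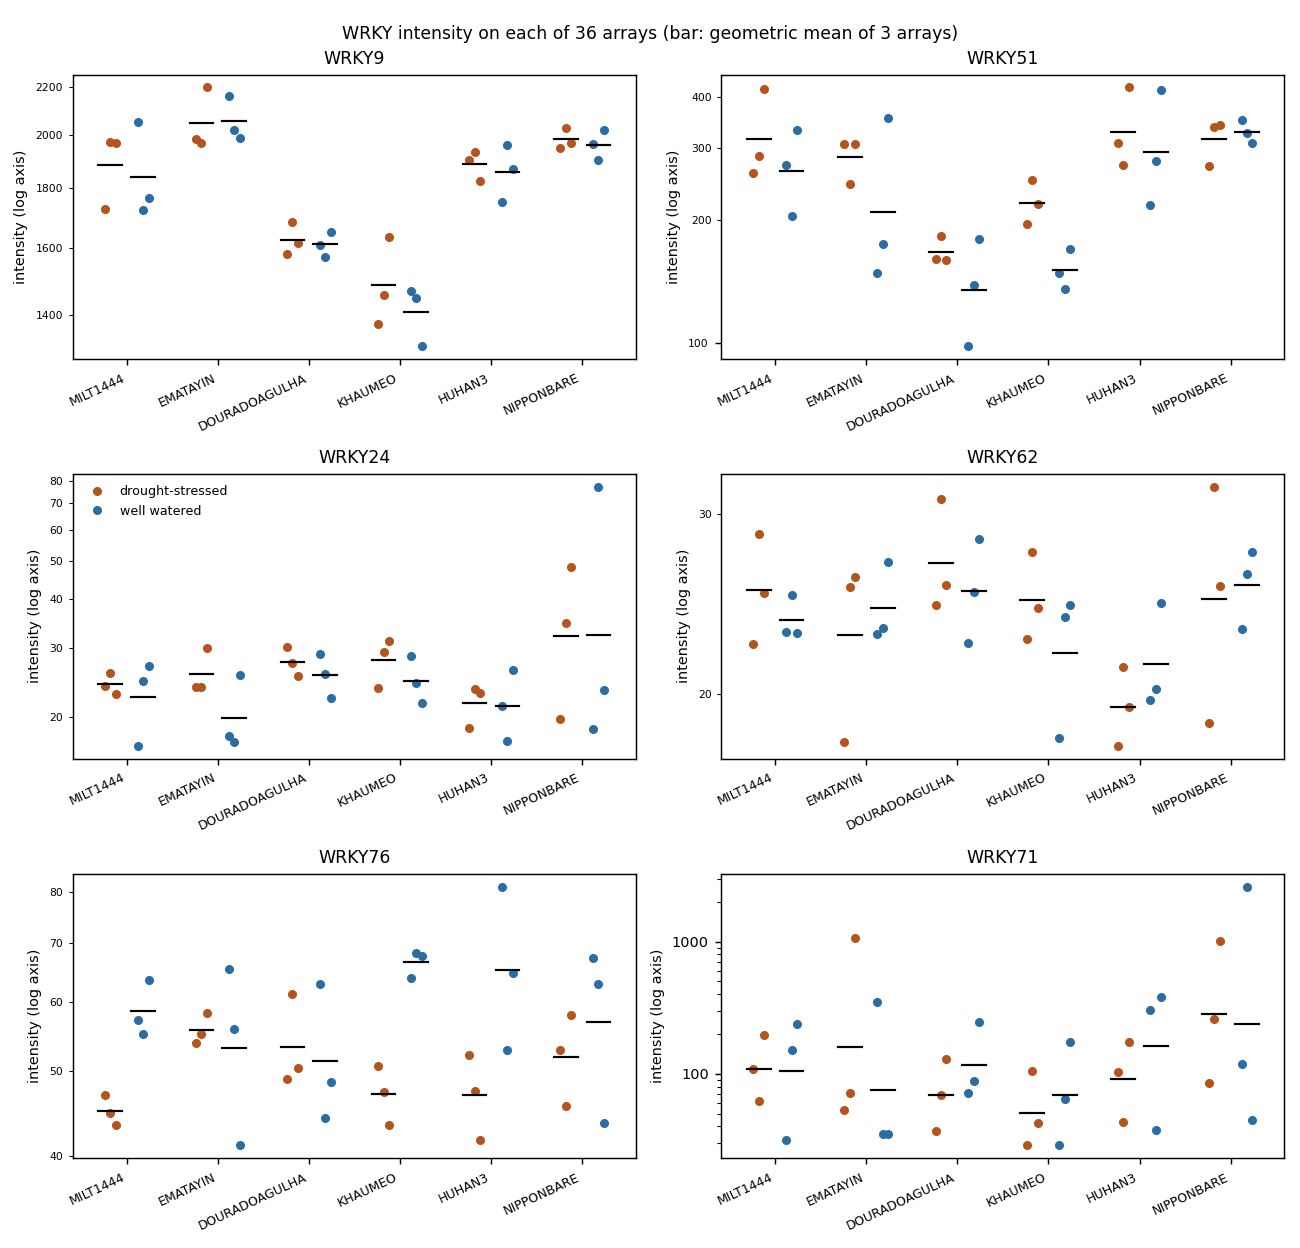
Intensity (log axis) of the 6 WRKY genes on each array, drought-stressed beside well watered for each variety, with bars at the geometric mean of 3 arrays. WRKY9 and WRKY51 sit lower in DOURADOAGULHA and KHAUMEO, the drought-stressed arrays of WRKY76 all lie below the well watered ones in MILT1444, KHAUMEO and HUHAN3, and WRKY71 scatters from 28.9 to 2614.

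No WRKY gene changed by at least 2-fold at an adjusted p of at most 0.05 in any variety. Such changes were rare over the whole array, with 0.67% of all probe sets in MILT1444, 0.663% in NIPPONBARE, 0.624% in HUHAN3, 0.351% in KHAUMEO, 0.315% in DOURADOAGULHA and 0.0629% in EMATAYIN. Without the fold threshold the count of members was still 0 of 6 in each variety. The share of all probe sets was then 0.11% in EMATAYIN, 1.65% in KHAUMEO, 3.02% in DOURADOAGULHA, 3.43% in MILT1444, 4.15% in HUHAN3 and 11% in NIPPONBARE. Limma with a trended and robust prior also called 0 members. At an unadjusted p under 0.05, 1 member passed in MILT1444 (18% of all probe sets), 2 in KHAUMEO (16.8%) and 1 in HUHAN3 (21.6%), and 0 in EMATAYIN (11.8%), DOURADOAGULHA (19.6%) and NIPPONBARE (28.1%). Those passes were WRKY76 in all 3 varieties and WRKY51 in KHAUMEO.

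Averaged over the 6 varieties, WRKY51 rose and WRKY76 fell, and the other 4 genes did not pass the test. These are 2 of 6 genes, a share no larger than the 42.1% of all probe sets that passed in the average response, with 20.6% higher and 21.5% lower. Neither reached 2-fold, as 0.383% of all probe sets did. The median change of the members was 0.02, beside -0.01 for all probe sets.

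WRKY76 fell by 0.23 in the average response (SE 0.068, 95% interval -0.37 to -0.09, adjusted p = 0.0086 in limma), a call that was lost without the arrays numbered 1 (-0.15, adjusted p = 0.13) or 2 (-0.26, adjusted p = 0.066). In KHAUMEO its intensities were 50.7, 47.4 and 43.4 on drought-stressed arrays, against 63.9, 68.2 and 67.7 on well watered arrays. In HUHAN3 they were 52.2, 47.5 and 41.7 under drought and 81.1, 52.9 and 64.8 in well watered panicles. In MILT1444 they were 47.0, 44.8 and 43.5 under drought and 57.1, 55.2 and 63.6 with water. In these 3 varieties every drought-stressed array was below every well watered array, a separation that 10.4%, 12.5% and 9.87% of all probe sets showed in KHAUMEO, HUHAN3 and MILT1444. The changes were -0.50, -0.47 and -0.38 (SE 0.17 each), with adjusted p values of 0.12, 0.094 and 0.22.

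The other varieties showed no such gap in WRKY76. NIPPONBARE had 52.8, 45.6 and 58.0 in drought-stressed panicles, against 67.2, 62.8 and 43.6 in well watered ones. EMATAYIN averaged 55.7 ± 2.23 under drought and 54.2 ± 12.2 with water (SD, n = 3 each). DOURADOAGULHA averaged 53.6 ± 6.71 under drought and 51.9 ± 9.66 with water (SD, n = 3 each). Their groups overlapped, and the changes were -0.13, 0.07 and 0.05 (SE 0.17 each). The difference between varieties did not pass limma's F test for an interaction of variety and treatment (adjusted p = 0.70), so a response in some varieties but not in others was not shown. The group means of WRKY76 ran between 45.1 and 66.6, near the array medians.

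WRKY51 rose by 0.28 on average (SE 0.11, 95% interval 0.06 to 0.50, adjusted p = 0.038 in limma). In KHAUMEO, the variety with the largest change, it had 196, 250.2 and 219 on drought-stressed arrays, against 149, 136 and 169.8 on well watered arrays. These groups did not overlap, as in 12.3% of all probe sets with drought higher, and the change was 0.55 (SE 0.26, adjusted p = 0.29). In EMATAYIN it had 308, 245 and 308 under drought, against 148, 175 and 355 with water. There, 1 well watered array exceeded all drought-stressed ones, and the change was 0.44 (SE 0.26). The changes were 0.31 in DOURADOAGULHA, 0.25 in MILT1444, 0.16 in HUHAN3 and -0.06 in NIPPONBARE, each with an SE of 0.26 and overlapping groups. The average call was lost when any of 16 single arrays was left out and under quantile normalization (0.19, adjusted p = 0.14 in limma).

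WRKY9 gave the tightest bound, with an average change of 0.03 and a 95% interval of -0.04 to 0.09 (adjusted p = 0.56). Its changes ran between -0.01 in EMATAYIN and 0.07 in KHAUMEO, each with an SE of 0.082. WRKY62 changed by 0.02 on average (SE 0.067, 95% interval -0.12 to 0.15, adjusted p = 0.87), with -0.14 in HUHAN3 and 0.17 in KHAUMEO at the ends. WRKY24 changed by 0.13 (SE 0.13, 95% interval -0.14 to 0.40, adjusted p = 0.46), between -0.01 in NIPPONBARE and 0.37 in EMATAYIN. Its average was 0.23 without the array of well watered NIPPONBARE replicate 2 (adjusted p = 0.051) and 0.06 without that of well watered NIPPONBARE replicate 1 (adjusted p = 0.70). The intervals of both genes include small changes of either sign.

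**Figure D2:**
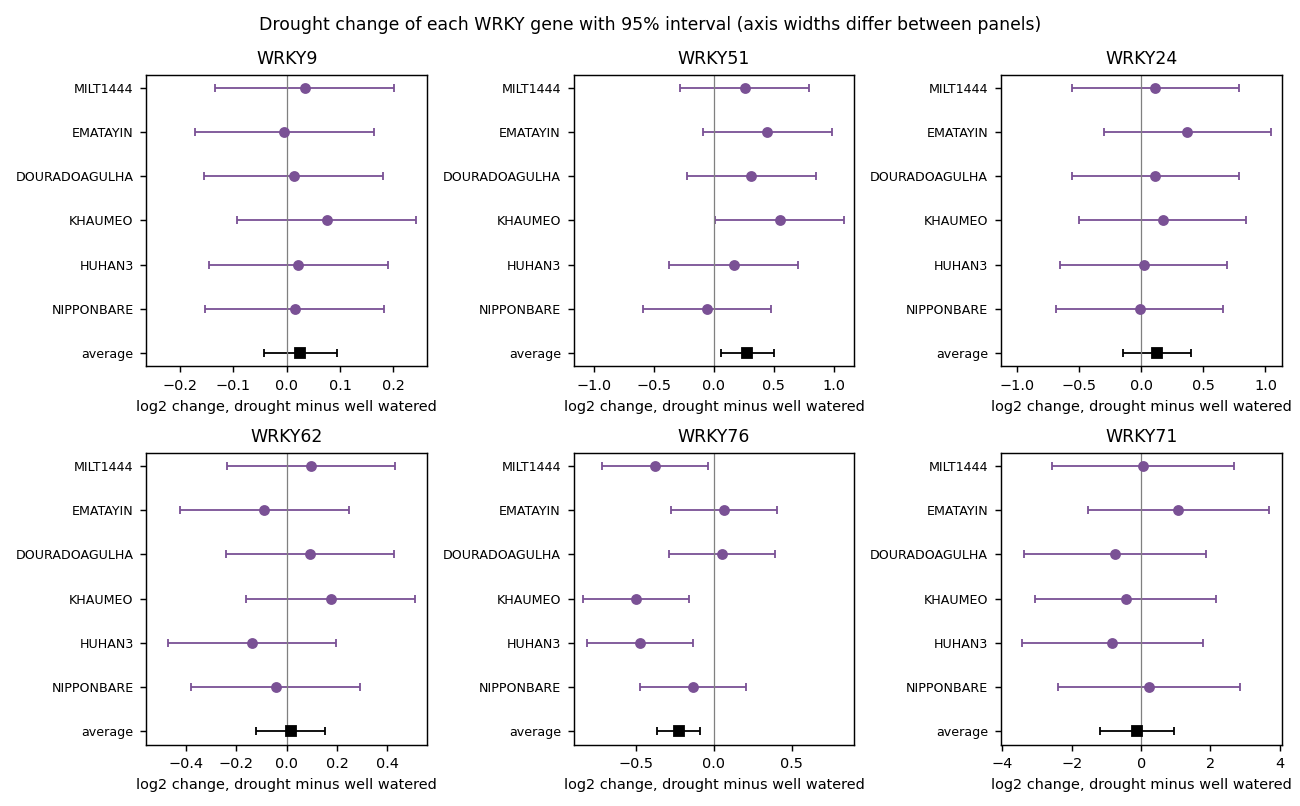
Drought change (log2, drought-stressed minus well watered) of each WRKY gene in each variety and on average, with 95% intervals from the limma fit; the axis widths differ between panels. The average intervals of WRKY51 (0.06 to 0.50) and WRKY76 (-0.37 to -0.09) leave out 0, and the WRKY71 intervals span several log2 units.

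The drought response of the members was then compared between classes of varieties. Between the 4 tolerant and the 2 sensitive varieties no member passed the test, with differences in response of -0.07 in WRKY62 to 0.13 in WRKY76, and 0 of 6 passed even at an unadjusted p under 0.05. Of all probe sets, 0% passed after adjustment and 6.28% did so unadjusted. Between the 2 indica and the 4 japonica varieties the difference ran from -0.73 in WRKY71 (SE 1.11) to 0.23 in WRKY51 (SE 0.23), and again 0 of 6 passed with or without adjustment, beside 0.0455% of all probe sets with it and 8.85% without. The interaction F test likewise gave 0 of 6 both ways, against 0.0542% of all probe sets with adjustment and 7.32% without. The spread in these tests is that between arrays and not that between varieties of a class.

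Levels were also compared between varieties. In well watered panicles, the F test over the 6 varieties passed for WRKY9 (adjusted p = 2.7e-05 in limma) and WRKY51 (adjusted p = 5.8e-04), that is for 2 of 6 members, against 34% of all probe sets. WRKY51 lost this call without the arrays numbered 2 (adjusted p = 0.078). The adjusted p of the other members lay between 0.30 for WRKY76 and 0.80 for WRKY71. Most probes on this array follow the NIPPONBARE sequence, so that a sequence difference in another variety and a difference in expression cannot be told apart.

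WRKY9 was lower in both indica varieties. Under drought it averaged 1489 ± 131 in KHAUMEO and 1626 ± 53.2 in DOURADOAGULHA, against 1887 ± 55.0 in HUHAN3, 1889 ± 139.8 in MILT1444, 1983 ± 41.0 in NIPPONBARE and 2049.8 ± 128 in EMATAYIN (SD, n = 3 each). With water it averaged 1412 ± 82.6 in KHAUMEO and 1611 ± 39.9 in DOURADOAGULHA, against 1847 ± 179 in MILT1444, 1861 ± 106 in HUHAN3, 1963 ± 58.3 in NIPPONBARE and 2056 ± 91.7 in EMATAYIN. The arrays of the 4 japonica varieties overlapped along this order under each treatment. The step down to DOURADOAGULHA had no overlap under either treatment, and the step on to KHAUMEO had none with water only. Over arrays, indica panicles had 1377 to 1684 and japonica panicles 1727 to 2197 under drought, and indica panicles had 1318 to 1652 and japonica panicles 1724 to 2160 with water.

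WRKY51 followed the same split with more scatter. Under drought it averaged 168 ± 12.95 in DOURADOAGULHA and 222 ± 27.2 in KHAUMEO, against 287 ± 36.3 in EMATAYIN, 317 ± 39.8 in NIPPONBARE, 322 ± 84.96 in MILT1444 and 335 ± 77.8 in HUHAN3 (SD, n = 3 each). With water it averaged 139 ± 40.5 in DOURADOAGULHA and 151 ± 17.2 in KHAUMEO, against 226 ± 112 in EMATAYIN, 269.6 ± 63.6 in MILT1444, 304 ± 100.9 in HUHAN3 and 329 ± 20.9 in NIPPONBARE. All neighbours in this order overlapped in single arrays, except DOURADOAGULHA and KHAUMEO under drought. The indica arrays lay between 159.7 and 250.2 under drought and the japonica arrays between 245 and 422, and with water the indica arrays lay between 98.5 and 179 and the japonica arrays between 148 and 415.

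The contrast of indica minus japonica levels was chosen after these values were seen. For WRKY9 it was -0.33 under drought (SE 0.050, adjusted p = 5.4e-06 in limma) and -0.35 with water (SE 0.050, adjusted p = 1.6e-06). For WRKY51 it was -0.69 under drought (SE 0.16, adjusted p = 0.0011) and -0.92 with water (SE 0.16, adjusted p = 3.9e-05). The other members did not pass, and of all probe sets 18.5% were lower in indica under drought and 16.1% with water. Over the 6 varieties as units, a two-sided exact permutation test has only 15 ways to draw 2 of 6. For both genes under both treatments the p of this permutation test was 0.067, the smallest possible. The 2 indica varieties were already seen to be lowest, so that this p largely follows from the choice and is no further evidence. The limma p values carry the same limit, and their spread is that between arrays and not that between varieties.

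The other levels showed no such order. WRKY76 had medians of 49.7 in indica and 49.9 in japonica arrays under drought, and of 63.3 in indica and 59.98 in japonica arrays with water. WRKY62 group means ran between 19.5 in drought-stressed HUHAN3 and 27.0 in drought-stressed DOURADOAGULHA. WRKY24 group means ran between 20.2 in well watered EMATAYIN and 39.7 in well watered NIPPONBARE, the last of which rests on 1 array at 77.1 beside 18.7 and 23.4.

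WRKY71 stood apart in its scatter between arrays of the same variety and treatment. Its standard deviation within groups was 1.68 on the log2 scale, and 4 of the 57194 probe sets, or 0.00699%, had a larger one. The median over all probe sets was 0.205 and the 90th percentile 0.352. The second WRKY71 probe set, which is dimmer, had 1.15, with 52 probe sets or 0.0909% above it. WRKY24 had 0.42 (5.13% above it) and WRKY51 had 0.34 (11.7% above it), while WRKY76 with 0.21 and WRKY62 with 0.20 sat at the middle. WRKY9, with 0.082, was among the steadiest, since 97.4% of probe sets varied more.

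**Figure D3:**
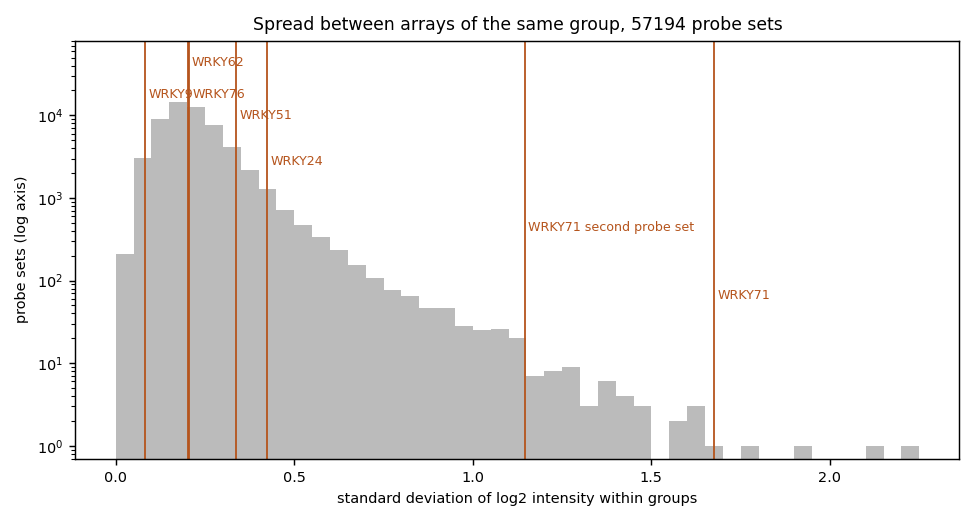
Histogram of the standard deviation of log2 intensity within groups for 57194 probe sets (bars, log axis), with lines at the 7 WRKY probe sets. The WRKY71 probe sets at 1.68 and 1.15 lie in the far tail, while WRKY9 at 0.082 lies at the low end.

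The single arrays show how wide this scatter was. In NIPPONBARE, WRKY71 had 85.3, 258 and 1019 on drought-stressed arrays, against 118, 2614 and 44.9 on well watered arrays. In EMATAYIN it had 52.8, 72.1 and 1063 under drought, against 350.1, 35.3 and 35.2 with water. In HUHAN3 it had 104, 43.2 and 174 under drought, against 304, 37.3 and 382 with water. The arrays of a group thus differed by up to 58.2-fold, in well watered NIPPONBARE, and both treatments held high and low arrays.

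The remaining varieties varied less but still widely. MILT1444 had 109, 62.1 and 196 under drought, against 31.8, 152 and 240.4 with water. DOURADOAGULHA had 37.1, 69.1 and 130.4 under drought, against 72.1, 89.1 and 248 with water. KHAUMEO had 29.2, 104 and 42.3 under drought, against 28.9, 64.5 and 175 with water. The narrowest group, drought-stressed MILT1444, spanned 3.16-fold. Over all arrays, 3 exceeded 500 and 18 were under 100, 10 of them under 50.

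The drought response of WRKY71 was poorly bounded at this scatter. Its average change was -0.11 with an SE of 0.52 and a 95% interval of -1.18 to 0.96 (adjusted p = 0.88), and the changes in single varieties ran between -0.83 in HUHAN3 and 1.07 in EMATAYIN with an SE of 1.28. The second probe set gave -0.35 (SE 0.36, 95% interval -1.09 to 0.38, adjusted p = 0.44). In single varieties it ran between -0.88 in HUHAN3 and 0.65 in EMATAYIN (SE 0.87), its only rise. In DOURADOAGULHA its arrays did not overlap, with 17.37, 21.47 and 23.79 under drought and 24.23, 26.85 and 35.85 with water. The share of all probe sets separated in this way in that variety was not counted. The sign of the second probe set differed from that of the brighter probe set in MILT1444 (-0.29 against 0.06) and NIPPONBARE (-0.62 against 0.23). Without the brightest array, well watered NIPPONBARE replicate 2, the average of the brighter probe set turned to 0.18 (adjusted p = 0.79). A change of 2-fold in either direction was not detectable at this spread in a single variety.

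The scatter was shared by both WRKY71 probe sets. Deviations of the 36 arrays from their group means correlated at a Pearson r of 0.92 and a Spearman rho of 0.93 (permutation p within groups 1e-05, the smallest it can give, adjusted p = 0.00016 for each over 16 pairs), and r was 0.89 without the 2 arrays farthest from the median. Of the other 15 pairs none passed after adjustment. By permutation p of r the closest were WRKY24 and WRKY71 (r 0.58, rho 0.41, permutation p 0.028 and 0.067, adjusted p 0.16 and 0.27). Without the 2 farthest arrays this r was 0.39. Next were WRKY51 and WRKY62 (r 0.35, rho 0.44, permutation p 0.03 and 0.018, adjusted p 0.16 and 0.15). WRKY71 and WRKY76 had a larger r of 0.42 (rho 0.38, permutation p 0.082 and 0.067, adjusted p 0.32 and 0.27). For WRKY51 and WRKY76 it was -0.42 (rho -0.30, permutation p 0.1 and 0.15, adjusted p 0.32 and 0.31). WRKY9 and WRKY51 correlated in level (r 0.59 over 36 arrays) and not within groups (r 0.07). Both were lower in indica, and the part of this difference in the level correlation was not tested. The neighbours WRKY62 and WRKY76 had an r of -0.24 within groups (adjusted p 0.34).

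The high arrays of WRKY71 were spread unevenly over the replicate numbers. The array numbered 3 was the highest of its group in 9 of 12 groups for WRKY71, and also in 9 of 12 for WRKY51, while for WRKY76 the array numbered 1 was the highest in 7 of 12. For WRKY9 the highest array was number 1, 2 and 3 in 3, 5 and 4 groups. The labels do not say whether a number marks a shared day or plot, and this count was made after the values were seen. It was not made for probe sets other than the members, so that it is not shown to be particular to WRKY71. Over all probe sets the deviations of drought-stressed and well watered arrays with the same number correlated at -0.30 to 0.20 over 18 pairs, with 4 above 0.1.

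Genes with the pattern most like that of WRKY71 were then listed, by a likeness rule also chosen after its values were seen: the Pearson correlation of deviations from the group means over 36 arrays, among 2457 genes with a symbol. No p is given, since the genes were picked for their correlation and share the arrays. The closest was TIFY11D (r 0.92), followed by BHLH148 (0.91), TIFY11E (0.88), TIFY10A (0.88), 4CL5 (0.88), GRXS5 (0.87), AOS1 (0.87), MPK7 (0.86), TIFY11B (0.86) and TPP1 (0.84). The 4 TIFY genes encode JAZ proteins, the repressors that jasmonate signalling degrades and whose genes it induces. AOS1 encodes allene oxide synthase, an enzyme of jasmonate synthesis, 4CL5 an enzyme of phenylpropanoid synthesis, and MPK7 a mitogen-activated protein kinase.

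The brightest arrays of WRKY71 were also high in these genes. On well watered NIPPONBARE replicate 2, where WRKY71 had 2614, TIFY11D had 1895, against 158 and 89.0 on the other arrays of its group. BHLH148 had 549 on that array, against 65.0 and 37.9. TIFY11E had 1678 on it, against 112 and 85.5. On drought-stressed EMATAYIN replicate 3, where WRKY71 had 1063, TIFY11D had 685, against 204 and 329. The genes were picked for this likeness, so that these values describe the choice and are no further evidence of it.

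**Figure D4:**
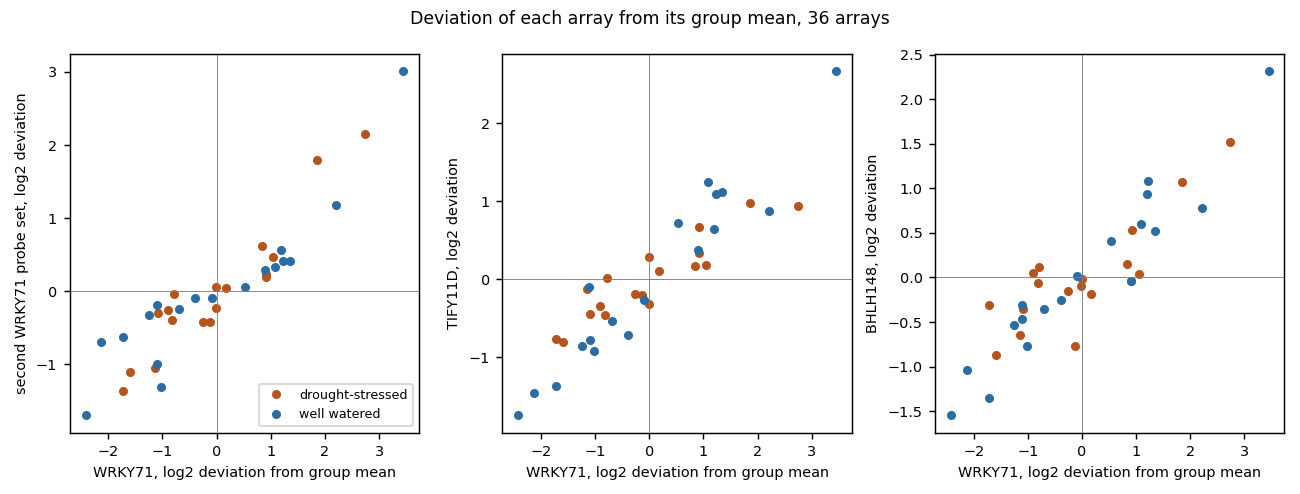
Deviation of each of 36 arrays from its group mean (log2) for WRKY71 on the x axis, against the second WRKY71 probe set, TIFY11D and BHLH148, coloured by treatment. The points follow a rising line in each panel (r 0.92, 0.92 and 0.91). Deviations are centred within each group, so that the panels cannot show a difference in level between treatments.

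Of 17 TIFY genes on the array, a list added after the data were seen, 8 had an r above 0.5 with WRKY71 (47.1%), beside 1.85% of all other probe sets, and their median r was 0.46, beside 0.03. The list was prompted by the 4 TIFY genes among the closest, so that its count is partly fixed by that choice. Of the 13 others, 4 lay above 0.5 (30.8%), with a median of 0.41. These are of the same family and were measured on the same arrays, so that they are no independent check. Of the 17 genes, 12 were brighter on average than the median probe set, while the 1.85% includes dim probe sets. In the average drought response 2 of the 17 TIFY genes rose and 4 fell, beside 20.6% and 21.5% of all probe sets. Of the 4 closest to WRKY71, TIFY11E fell by 1.61 (SE 0.51, adjusted p = 0.013 in limma) and TIFY10A by 0.42 (SE 0.12, adjusted p = 0.0047). TIFY11B (-0.81, SE 0.37, adjusted p = 0.085) and TIFY11D (-0.43, SE 0.33, adjusted p = 0.31) did not pass. Among 8 upstream kinases and receptors of the lists, MPK7, MPK5 (0.82) and MKK1 (0.56) lay above 0.5. No salicylic acid signalling gene, defence output gene, diterpenoid enzyme or tissue marker did, with medians of -0.08 for meiosis markers to 0.20 for salicylic acid signalling and diterpenoid enzymes. Green leaf markers had a median r of 0.18 with WRKY71 and tapetum markers one of 0.19, and the part of tissue makeup in this scatter was not tested.

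The other members were treated in the same way. WRKY51 followed a pattern shared by 182 probe sets at an r above 0.8, led among named genes by HOX20 (0.85), TPK3 (0.85) and TLP3 (0.84). WRKY71 had 59 such probe sets, WRKY24 had 9, WRKY9 and WRKY62 had 1 each and WRKY76 had 0. WRKY24 was closest to PP2C29 (0.76) and NAAT1 (0.76), WRKY76 to GLU2 (0.71), WRKY9 to ERCC4 (0.67) and WRKY62 to CIN4 (0.66). For WRKY24 the rank correlation was lower (rho 0.49 for both), and without its brightest array, at 77.1, r was 0.47 with PP2C29 and 0.49 with NAAT1.

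Genes around the WRKY factors in immune signalling were counted in the average response. Of 8 upstream kinases and receptors, 3 rose and 1 fell, against 20.6% and 21.5% of all probe sets. CEBIP, the receptor-like protein for fungal chitin, rose by 0.36 (SE 0.058, adjusted p = 2.9e-05 in limma), MPK4 rose by 0.28 and MKK1 by 0.18, while MPK7 fell by 0.28 (SE 0.091, adjusted p = 0.014). Of 8 salicylic acid signalling genes, NPR3 rose by 0.24 and SGT1 fell by 0.18, and NH1, the rice counterpart of the Arabidopsis receptor NPR1, changed by 0.07 (adjusted p = 0.28).

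Defence genes further downstream were dim in part, and their counts stand beside 20.6% of all probe sets that passed as higher and 21.5% as lower. Of 7 defence output genes, 4 were brighter on average than the median probe set and 1 passed, the chitinase gene CHT4 with 0.40 (SE 0.16, adjusted p = 0.0497) at a mean intensity of 17.4. PBZ1, a pathogenesis-related gene, changed by 0.23 (SE 0.19, adjusted p = 0.36). Of 16 enzymes of diterpenoid phytoalexin synthesis only 2 were brighter on average than the median probe set. CYP76M7 rose by 0.25, and KSL10, KSL5 and CYP99A3 fell by 0.40, 0.28 and 0.17, while 12 did not pass. None of the 40 symbols listed for VQ proteins, which bind WRKY factors, matched a gene.

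Markers of tissue and stage were counted in the average response in the same way, beside the same 20.6% higher and 21.5% lower of all probe sets. Of 7 meiosis markers 5 rose, with a median of 0.25, and 3 of 16 young panicle markers rose and 1 fell. Of 4 leaf senescence markers 2 rose and 1 fell, and 2 of 5 green leaf markers rose, while 2 of 6 tapetum markers fell. The summed intensity of the meiosis markers was 2988 to 7427 on drought-stressed arrays and 2723 to 6472 on well watered arrays, and that of the young panicle markers was 41583 to 51721 on drought-stressed and 39679 to 52037 on well watered arrays. For green leaf the sums were 3313 to 12379.5 under drought and 2869 to 12807 with water. For leaf senescence the sums were 1318 to 2777 under drought and 1171 to 2083 with water, and for the tapetum 921 to 2619.9 under drought and 843 to 2923 with water. The part of a shift in stage or tissue in the changes of WRKY51 and WRKY76 was not tested.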

How the data were processed

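Deposited values were intensities on a linear scale, which the authors made by RMA in the affy package, whose version the sources do not give. RMA output is normally in log2, and the sources do not say how the values became linear. After log2 transformation and removal of 187 control probe sets of 57381, group means were fitted with limma 3.58.1 (R 4.3.3), with a mean for each of 12 groups and the default eBayes. Calls within a variety needed 2-fold or more and an adjusted p up to 0.05, calls of the average and F tests the adjusted p alone.

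Gene names came from the platform annotation and RefSeq, and the brightest probe set by mean log2 stood for a gene. Members called in a variety, with the 8 largest average rises and falls, the 4 smallest interaction p or the 5 widest level ranges among bright members were to be described in detail, and all 6 were. Members and gene lists were chosen with earlier results of these data known. Permutation tests used 100000 resamples or all splits. Precision is limited by array number: an exact test of 3 against 3 arrays cannot go below 0.1. The fit was checked on simulated data. Python 3.11.15, pandas 2.3.3, numpy 2.4.6 and scipy 1.17.1 handled the tables. Alternatives were a trended and robust eBayes, replicate blocks, bright probe sets only, the mean over probe sets of a gene, log2 of the value plus 50, quantile normalization, median centring, a fit of each variety alone and leaving out arrays or replicate numbers.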

Additional observations from a re-analysis of the deposited data

How the results depend on the processing

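The counts of 0 WRKY genes in each variety, in the interaction and in the contrasts between tolerant and sensitive or indica and japonica responses held under all alternatives that were run, and the count of 2 genes lower in indica did so under both treatments. The rise of WRKY51 was lost under quantile normalization (0.19, adjusted p = 0.14 in limma), which left 0 genes higher, and the cause was not tested. Leaving out arrays gave 0.23 to 0.37 for WRKY51 with adjusted p of 0.0022 to 0.31, and 0 to 1 genes higher. The call was lost in 18 of 39 such fits: without replicate number 1 or 2, or without 1 array of 16. These 16 were drought-stressed replicate 3 and well watered replicate 2 of MILT1444, drought-stressed 1 and 3 and well watered 1 and 2 of EMATAYIN, drought-stressed 2 and well watered 1 of DOURADOAGULHA, drought-stressed 2 and well watered 2 of KHAUMEO, drought-stressed 3 and well watered 1 and 2 of HUHAN3, and drought-stressed 2 and 3 and well watered 3 of NIPPONBARE.

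WRKY76 stayed between -0.27 and -0.15 when arrays were left out, with 0 to 1 genes lower, and lost its call without replicate number 1 (-0.15, adjusted p = 0.13) or 2 (-0.26, adjusted p = 0.066). Among bright probe sets only, 0 genes were lower because WRKY76 was not tested there. WRKY9, WRKY62 and WRKY71, which missed the threshold, changed sign in some fits. WRKY9 was -0.0063 under quantile normalization and between -0.0041 and 0.0703 with arrays left out, WRKY62 between -0.0768 and 0.0665, and WRKY71 between -0.58 and 0.18. WRKY24 kept its sign in these fits, at 0.03 on the log2 of the value plus 50 and 0.06 to 0.23 with arrays left out.

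Over all probe sets, the replicate numbers did not pair the arrays of a variety (4 of 18 pairs correlated above 0.1). This check does not settle single genes. With the replicate number as a block within a variety, the average changes kept their calls (WRKY51 adjusted p = 0.019, WRKY76 adjusted p = 0.026), and 2 genes still differed in level between well watered varieties. The SE of the average change of WRKY51 was 0.107 without a block and 0.086 with this block. With a block shared by all varieties it was 0.085 (adjusted p = 0.011 in limma). Leaving out arrays gave 1 to 2 such genes, with 1 without replicate 2, where WRKY51 lost its call (adjusted p = 0.078). A fit of each variety alone gives no average response and was run for the calls within varieties only. Dim signal limits what WRKY24, WRKY62 and WRKY76 can show.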
